A study of Mus musculus with 12 samples.

Results

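The imprinted genes examined here were 33 named protein-coding mouse genes from the textbook set of imprinted loci, of 21883 protein-coding genes in the RefSeq annotation of the mm10 build. Each gene was assigned every ChIP-seq peak that lay in its body or within 5 kb on both sides, called its window here. By the parental copy known to be active where the gene is imprinted, 20 of the genes are paternally and 12 maternally expressed. Gnas makes transcripts of both kinds. The maternal class holds for Ube3a in neurons and for Tssc4, Cd81 and Ppp1r9a in the placenta. Grb10 is maternal in most tissues and paternal in neurons, and Dio3 is preferentially paternal.

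Genomic imprinting is the expression of a gene from one parental chromosome only. It is set by DNA methylation laid down in the egg or in the sperm precursor at short CpG-rich control regions, most of which are methylated on the maternal copy and act as promoters on the paternal one. In the male germ line the marks of both parental chromosomes are erased before birth and replaced by the paternal pattern, so that spermatogonia and spermatocytes carry both copies in the paternal state. INO80 is a chromatin remodelling ATPase that can slide nucleosomes and exchange histone variants, and H2A.Z replaces canonical H2A in nucleosomes at many promoters.

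The chromatin came from spermatogenic cells of testes at postnatal day 18, in mice of mixed background. INO80 was precipitated from wild-type cells with an antibody against INO80. H2A.Z was precipitated with 1 antibody from Ino80WT cells and from Ino80cKO cells, in which Ino80 had been deleted by Cre driven from the Stra8 promoter, which is active in germ cells about to enter meiosis. The cells had been freed with collagenase and trypsin and filtered, the chromatin had been cut with micrococcal nuclease, and each precipitation had input libraries of its own. Each of the 3 ChIP groups had 2 libraries, and the labels do not say whether these came from different animals. Each group was deposited as 1 list of peak positions with no height, score or read depth. A peak is therefore present or absent, replicate error cannot be computed, and no difference below was tested. The lists held 18139 INO80 peaks with a median width of 678 bp, 33827 wild-type H2A.Z peaks with a median width of 460 bp and 26199 knockout H2A.Z peaks with a median width of 422 bp. No peak in any list was narrower than 147 bp. A peak list tells neither the parental copies nor the cell types of the suspension apart, it holds no value that checks the deletion or the purity of the cells, and a mark carried by fewer cells cannot be told apart from less of it per cell. Expression was not measured in these files.

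The promoter sequences of 8 stretches show the range of starts over which the peaks did and did not lie. Each is the 250 bases before a transcription start, 5′ to 3′ on the gene's strand, from RefSeq on GRCm38.p6, with every CpG in capitals because CpGs are the bases that imprints methylate. The first group holds the members with the widest INO80 peak over a promoter, namely Dio3 (chr12:110278980-110279229, plus strand), Gnas at its exon 1A start (chr2:174327499-174327748, plus strand), Igf2 (chr7:142661272-142661521, minus strand) and Ascl2 (chr7:142969265-142969514, minus strand).
Dio3: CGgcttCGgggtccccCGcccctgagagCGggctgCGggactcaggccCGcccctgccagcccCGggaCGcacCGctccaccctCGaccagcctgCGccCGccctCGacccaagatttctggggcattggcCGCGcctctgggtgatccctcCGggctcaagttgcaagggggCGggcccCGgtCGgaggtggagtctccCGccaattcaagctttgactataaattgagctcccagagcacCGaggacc
Gnas: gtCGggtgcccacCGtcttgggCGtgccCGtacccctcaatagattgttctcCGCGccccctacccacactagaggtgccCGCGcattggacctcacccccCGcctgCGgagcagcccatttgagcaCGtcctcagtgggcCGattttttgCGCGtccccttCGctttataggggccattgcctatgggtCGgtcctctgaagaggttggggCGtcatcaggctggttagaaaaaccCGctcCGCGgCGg
Igf2: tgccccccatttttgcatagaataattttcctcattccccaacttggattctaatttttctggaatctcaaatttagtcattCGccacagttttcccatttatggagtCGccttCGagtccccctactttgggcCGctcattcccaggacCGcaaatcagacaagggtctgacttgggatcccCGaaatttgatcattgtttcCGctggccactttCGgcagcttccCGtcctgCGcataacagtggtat
Ascl2: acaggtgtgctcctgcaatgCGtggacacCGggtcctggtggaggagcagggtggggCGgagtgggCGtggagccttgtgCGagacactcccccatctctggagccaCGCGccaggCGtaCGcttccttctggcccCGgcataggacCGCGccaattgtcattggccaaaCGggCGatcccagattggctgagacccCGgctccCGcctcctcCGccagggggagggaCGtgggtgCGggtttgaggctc
The second group holds 2 members without a peak in any list, Ndn (chr7:62348027-62348276, plus strand) and Magel2 (chr7:62376729-62376978, plus strand).
Ndn: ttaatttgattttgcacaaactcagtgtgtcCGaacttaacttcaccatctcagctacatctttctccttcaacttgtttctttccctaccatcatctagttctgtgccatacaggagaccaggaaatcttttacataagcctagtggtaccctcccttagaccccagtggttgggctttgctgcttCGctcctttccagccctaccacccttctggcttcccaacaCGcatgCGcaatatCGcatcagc
Magel2: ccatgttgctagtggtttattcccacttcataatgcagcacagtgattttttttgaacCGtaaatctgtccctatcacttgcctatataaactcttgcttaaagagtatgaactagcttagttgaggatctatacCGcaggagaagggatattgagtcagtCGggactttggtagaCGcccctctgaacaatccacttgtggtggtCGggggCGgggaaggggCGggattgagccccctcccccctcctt
The last group was chosen after its values were seen. Peg12 (chr7:62464511-62464760, minus strand) is the neighbour of Ndn and Magel2 and carried peaks of all 3 lists, and Nnat (chr2:157559828-157560077, plus strand) carried INO80 at its start without H2A.Z.
Peg12: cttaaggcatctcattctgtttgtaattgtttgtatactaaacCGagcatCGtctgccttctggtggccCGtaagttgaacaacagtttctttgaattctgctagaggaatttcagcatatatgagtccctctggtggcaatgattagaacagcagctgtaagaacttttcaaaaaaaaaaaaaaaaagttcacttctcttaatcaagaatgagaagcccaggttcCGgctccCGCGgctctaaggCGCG
Nnat: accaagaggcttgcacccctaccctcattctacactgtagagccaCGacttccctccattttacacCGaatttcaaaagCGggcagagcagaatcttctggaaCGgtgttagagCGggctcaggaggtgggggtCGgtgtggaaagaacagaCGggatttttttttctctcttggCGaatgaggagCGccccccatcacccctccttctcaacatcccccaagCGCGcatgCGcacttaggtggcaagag
The stretches of Dio3, Gnas and Ascl2 hold 21, 21 and 19 CpGs and that of Igf2 holds 10. Those of Ndn, Magel2 and Peg12 hold 5, 7 and 8, although peaks of all 3 lists lay over Peg12 and none lay near the other two.

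Peaks were found at most of the imprinted genes. INO80 lay in the windows of 28 of the 33 members, against 63.3% of all protein-coding genes. Wild-type H2A.Z lay in 29 windows, against 73.6% of genes, and knockout H2A.Z in 29, against 70.1%. The 29 genes with H2A.Z were the same in both genotypes, for which the background was 69.6%. No member had H2A.Z in the wild type alone, as 4% of genes did, or in the knockout alone, as 0.571% did, and a count of 0 of 33 allows a share of up to 9.09% when the limit is set at 3 counts. Peaks of all 3 lists met in 28 windows, against 60.6% of genes, and no window held INO80 without wild-type H2A.Z, against 1.11%. The median member was about as long as the median gene, with 16049 bp against 17170 bp.

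The 5 members without INO80 were all paternally expressed. Ndn and Magel2, which encode MAGE-family proteins, Mkrn3, a RING-finger ubiquitin ligase gene, and Rtl1, a placental gene derived from a retrotransposon, had no peak in any list, as was the case for 25% of genes. Impact, which encodes a regulator of the translation kinase GCN2, had H2A.Z in both genotypes without INO80, a state shared by 11.3% of genes. INO80 was thus in the window of 15 of 20 paternally expressed and 12 of 12 maternally expressed genes. H2A.Z of either genotype was in the window of 16 of 20 and 12 of 12.

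These counts do not stand for independent units. Of the 12 maternally expressed genes, 7 lie in the Igf2–Kcnq1 domain, and 3 of the 5 genes without INO80 are neighbours. Joined into loci, the 33 members made 15, of which 14 held INO80 and all 15 held H2A.Z in both genotypes. A locus counted if any of its members had the peak, so the 5 loci of several members had more windows to count through. No such share was computed over all genes, and the shares per gene do not apply to loci. The median maternally expressed gene was also longer, at 23853 bp against 14086.5 bp. With windows of 1 kb on both sides of either gene end in place of the whole gene, INO80 lay in 11 of 20 paternally and 11 of 12 maternally expressed windows, and in 23 of all 33, against 54.5% of genes.

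Those narrow windows show which members carried their peaks at the gene ends and which inside. Wild-type H2A.Z lay in 24 of the 33, against 62.6% of genes, knockout H2A.Z in 23, against 59.2%, and both in 23, against 58.5%. Peaks of all 3 lists met in 20, against 50.6% of genes. No peak lay at the ends of 7 members, against 35% of genes. These were the 4 genes without any peak, and Igf2, Snrpn and Slc22a18, whose own peaks lay in the gene body. INO80 without wild-type H2A.Z was found at the ends of Gnas and Nnat, against 2.07% of genes, and wild-type H2A.Z without INO80 at those of Impact, Mest and Zdbf2, against 10.2%. Dlk1 alone had H2A.Z in the wild type only, against 4.13% of genes, since its knockout peak began 1027 bp from the gene end, just beyond the limit. No member had it in the knockout only, against 0.653%.

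The INO80 peaks at the members were wide. The widest INO80 peak of a window had a median of 1879.5 bp over the 28 members with one, against 906 bp over all genes with one. The median was 1750 bp in paternally and 2157 bp in maternally expressed genes. Each of these is 1 peak counted for both neighbours, Peg3 and Usp29 in the first case and Phlda2 and Slc22a18 in the second. Member windows with INO80 also held a median of 2 INO80 peaks, against 1 over all genes with one. A widest peak is thus drawn from more peaks, and the part of this in the widths was not tested. The 48 distinct INO80 peaks in the windows had a median width of 894.5 bp, against 678 bp over all INO80 peaks. The widest wild-type H2A.Z peak had a median of 1247 bp against 834 bp over all genes, and the widest knockout peak 1040 bp against 694 bp. Over the 48 distinct INO80 peaks in the windows, 12 were 2 kb or wider, a share of 25% (95% Wilson interval 14.9% to 38.8%) against 10.5% of all INO80 peaks. This width was chosen after the values were seen, and such intervals cover counting error only and treat peaks as independent. The background share counts INO80 peaks anywhere in the genome, not only in gene windows. Of these 12 peaks, 6 lay in the Igf2–Kcnq1 domain, 3 at Gnas and 1 each at Grb10, at Dio3 and between Sgce and Peg10.

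**Figure D1:**
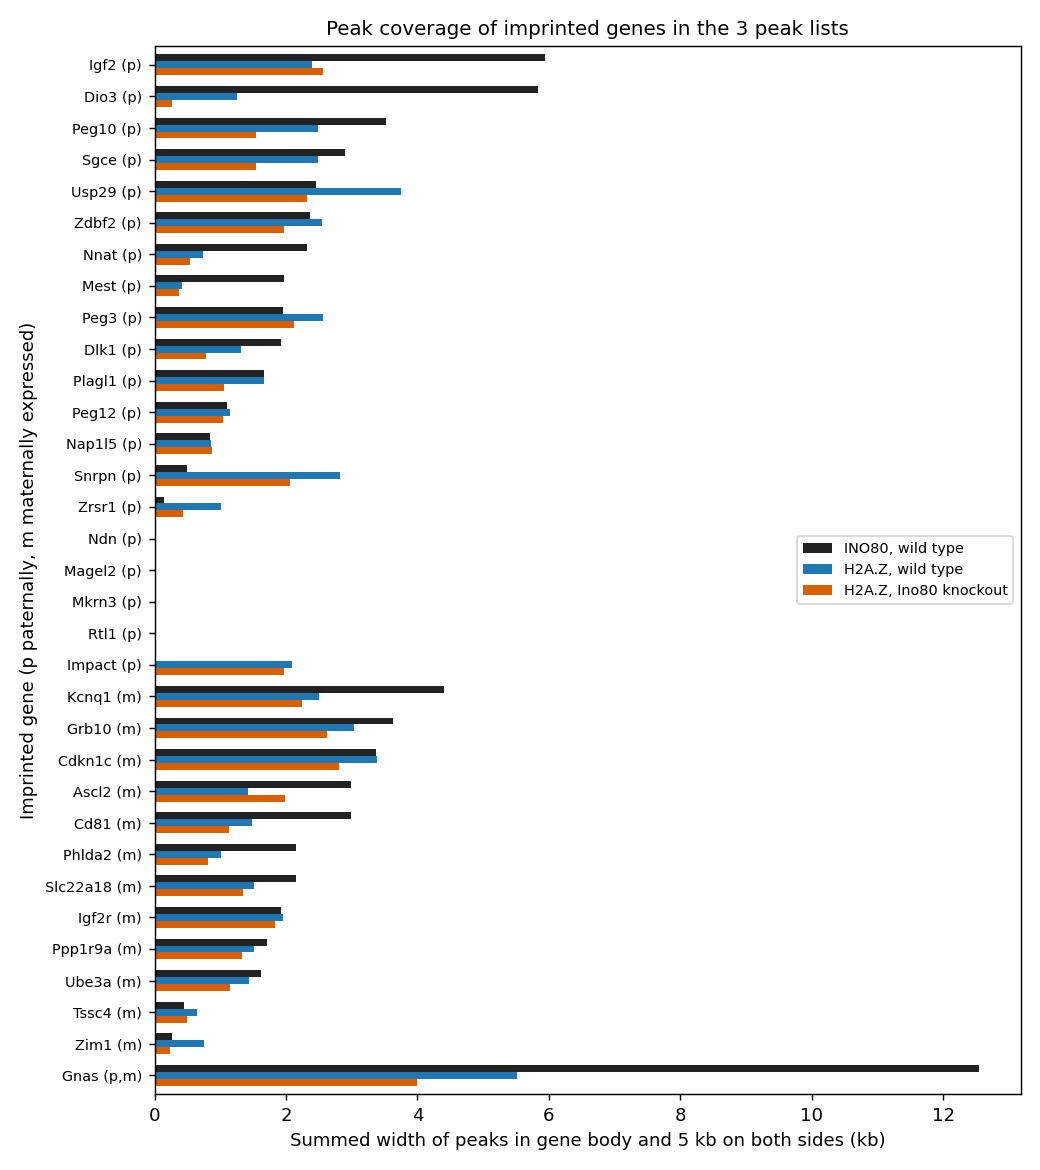
Summed width in kb of the INO80, wild-type H2A.Z and knockout H2A.Z peaks in the window of each imprinted gene, 1 row per gene, with p for paternally and m for maternally expressed. INO80 at Gnas spans 12551 bp, and the rows of Ndn, Magel2, Mkrn3 and Rtl1 are empty.

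The annotated promoters gave a closer view of the starts. RefSeq promoters, from 250 bases before to 50 bases after a start, were at hand for 27 of the members, with 41 promoters in all. INO80 lay over at least 1 promoter of 20 of the 27 members, against 48.1% of genes with a promoter entry, in 11 of 16 paternally and 8 of 10 maternally expressed genes. Wild-type H2A.Z also lay over a promoter of 20 members, against 55.9%, and knockout H2A.Z over a promoter of 19, against 49.5%. Both marks did not always go to the same promoters. INO80 without H2A.Z was found at Dlk1 and Nnat, and H2A.Z without INO80 at Snrpn and Zrsr1. Per promoter, 5 of the 27 member promoters under INO80 had no wild-type H2A.Z over them, against 11.6% of all promoters under INO80. These were 2 of Igf2 and 1 each of Dlk1, Gnas and Nnat. The 2 of Igf2 lay under the same INO80 peak as a further Igf2 promoter that had H2A.Z, so promoters are not independent units.

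**Figure D2:**
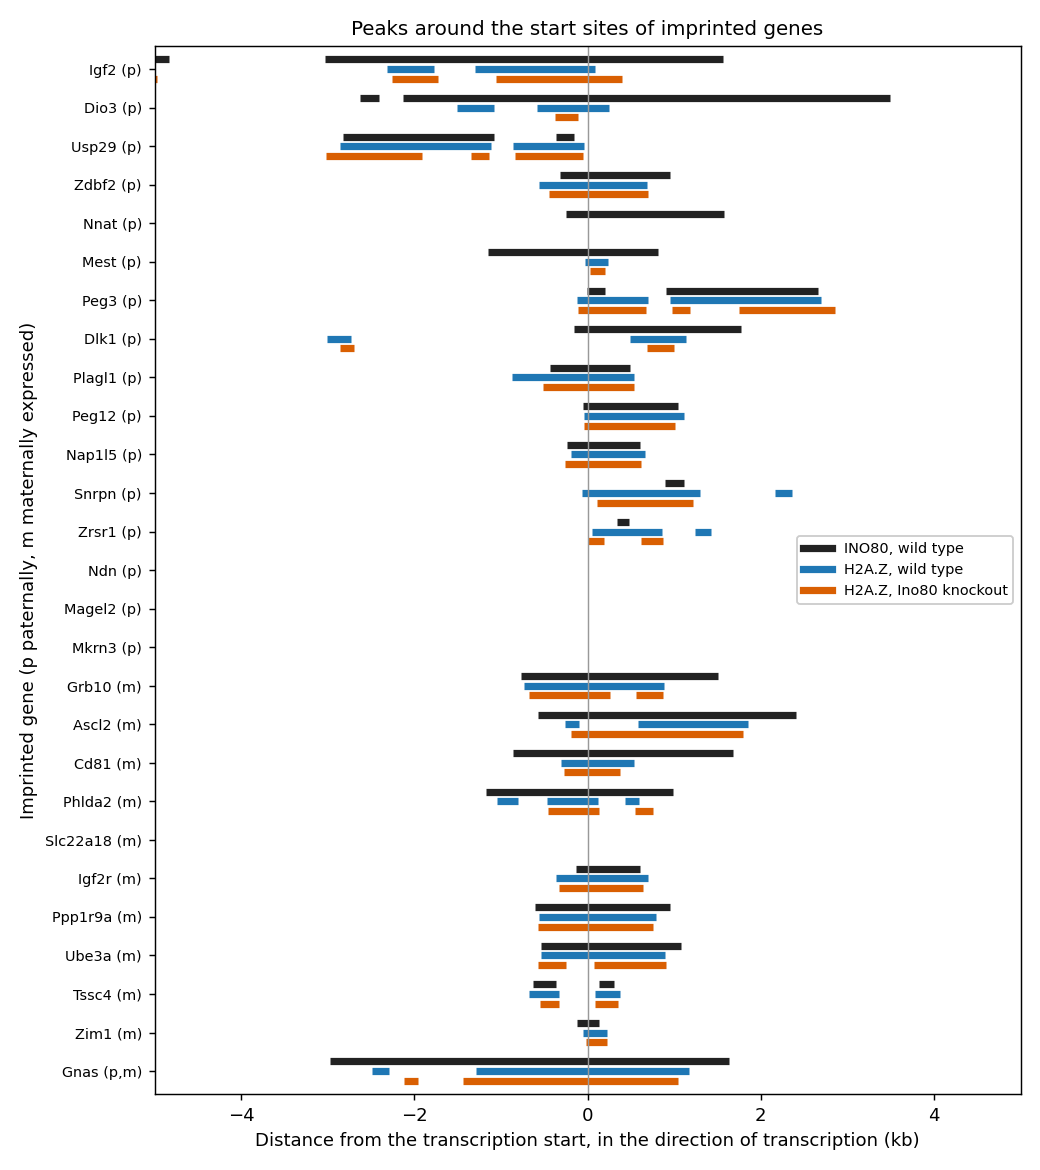
Position of each peak in kb from the transcription start, in the direction of transcription, for imprinted genes with a promoter entry. The promoter with the widest INO80 peak is drawn, or the widest wild-type H2A.Z peak where no promoter has INO80, and the INO80 bar of Dio3 reaches over both sides of the start while Nnat has no H2A.Z bar.

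The Igf2–Kcnq1 domain on chromosome 7 was the most densely marked of the multi-gene domains examined. It runs over 862 kb from 5 kb beyond Igf2 to 5 kb beyond Phlda2, and it held 16 INO80 peaks, 25 wild-type and 22 knockout H2A.Z peaks. That is 18.6, 29.0 and 25.5 peaks per Mb, against 6.74, 12.6 and 9.74 per Mb over the genome.

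Igf2, the fetal growth factor gene and the domain's one paternally expressed member, had 2 INO80 peaks of 4602 and 1341 bp in its body. The wider one, at 142657235 to 142661836, covered 3 of the 4 annotated starts. Wild-type H2A.Z peaks of 1380, 538 and 485 bp and knockout peaks of 1455, 535 and 569 bp lay inside those INO80 peaks. Coverage was 5943 bp for INO80, 2403 bp for wild-type and 2559 bp for knockout H2A.Z, so that the knockout list covered slightly more.

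Ascl2, which encodes a basic helix-loop-helix factor of the placenta, had a single INO80 peak of 2988 bp at 142966853 to 142969840 that reached over its start. Below it lay wild-type H2A.Z peaks of 1264 and 154 bp. In the knockout list 1 peak of 1987 bp spanned both, and coverage stood at 140% of the wild-type value. It was the only one of 62 knockout peaks at the members to join wild-type peaks, against 0.637% of all knockout peaks.

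Cdkn1c, a cyclin-dependent kinase inhibitor that restrains fetal growth, lay largely under an INO80 peak of 2669 bp, with a second of 695 bp within the 5 kb upstream. Wild-type H2A.Z formed peaks of 970 and 1309 bp under the first, and knockout H2A.Z peaks of 936 and 1167 bp at the same places. A wild-type peak of 464 bp further out had no counterpart in the knockout. Phlda2, which limits placental growth, had an INO80 peak of 2157 bp over its start. This same peak was the only INO80 peak in the window of Slc22a18, a transporter gene that ends 2210 bp from Phlda2 and whose own promoter carried no peak of any list. Slc22a18 itself held 2 short H2A.Z peaks in its body, of 201 and 301 bp in the wild type and 196 and 342 bp in the knockout.

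Kcnq1, a potassium channel gene of 320 kb, carried INO80 of 3554 bp at its 5′ end. Its intron holds the promoter of Kcnq1ot1, the noncoding RNA that silences the domain on the paternal copy. An INO80 peak of 677 bp began 298 bp inside the Kcnq1ot1 start at 143296547, a wild-type H2A.Z peak of 192 bp began 2 bp inside it, and a knockout peak of 352 bp lay over it. Cd81, a tetraspanin gene, had INO80 of 2538 bp over its start with H2A.Z of 845 bp in the wild type and 651 bp in the knockout. Tssc4, whose first base lies 485 bp from the end of Cd81, had short peaks of all 3 lists on both sides of its promoter and none over it, the INO80 ones of 272 and 175 bp. Every one of the 8 members of this domain thus had all 3 kinds of peak in its window, the INO80 of Slc22a18 being that of Phlda2.

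The Snrpn–Ube3a domain, also on chromosome 7, was the sparsest. Over 3246 kb it held 4 INO80 peaks, 10 wild-type and 9 knockout H2A.Z peaks, or 1.23, 3.08 and 2.77 per Mb. Ube3a, a ubiquitin ligase gene expressed from the maternal copy in neurons, carried an INO80 peak of 1622 bp over its start. The wild-type H2A.Z peak there measured 1440 bp, and in the knockout list its place held peaks of 322 and 826 bp, the second of which began 79 bp beyond the start.

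Snrpn, which encodes a splicing protein and whose promoter is the domain's imprinting control region, was marked by H2A.Z more than by INO80. A wild-type H2A.Z peak of 1364 bp lay over the start at 60005199. The knockout peak of 1110 bp lay wholly inside the gene and did not reach the annotated promoter. The INO80 peak there measured 217 bp and began 897 bp inside the gene. Across the window INO80 covered 493 bp and H2A.Z 2816 bp in the wild type and 2064 bp in the knockout.

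No peak of any list lay in the 81.9 kb from 5 kb before Ndn to 5 kb beyond Mkrn3, nor in the 41.7 kb between Mkrn3 and Peg12. Peg12, a gene for a GSK3-binding protein, ended that stretch with a peak of each list over its start. These measured 1098 bp for INO80, 1151 bp for wild-type and 1045 bp for knockout H2A.Z. The INO80 peak was 115191 bp from the start of Ndn, 86489 bp from that of Magel2 and 43315 bp from that of Mkrn3. In the 300-base promoters CpGs numbered 11 at Ndn, 10 at Magel2, 15 at Mkrn3 and 12 at Peg12, so the 4 neighbours differed in peaks at like CpG counts.

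**Figure D3:**
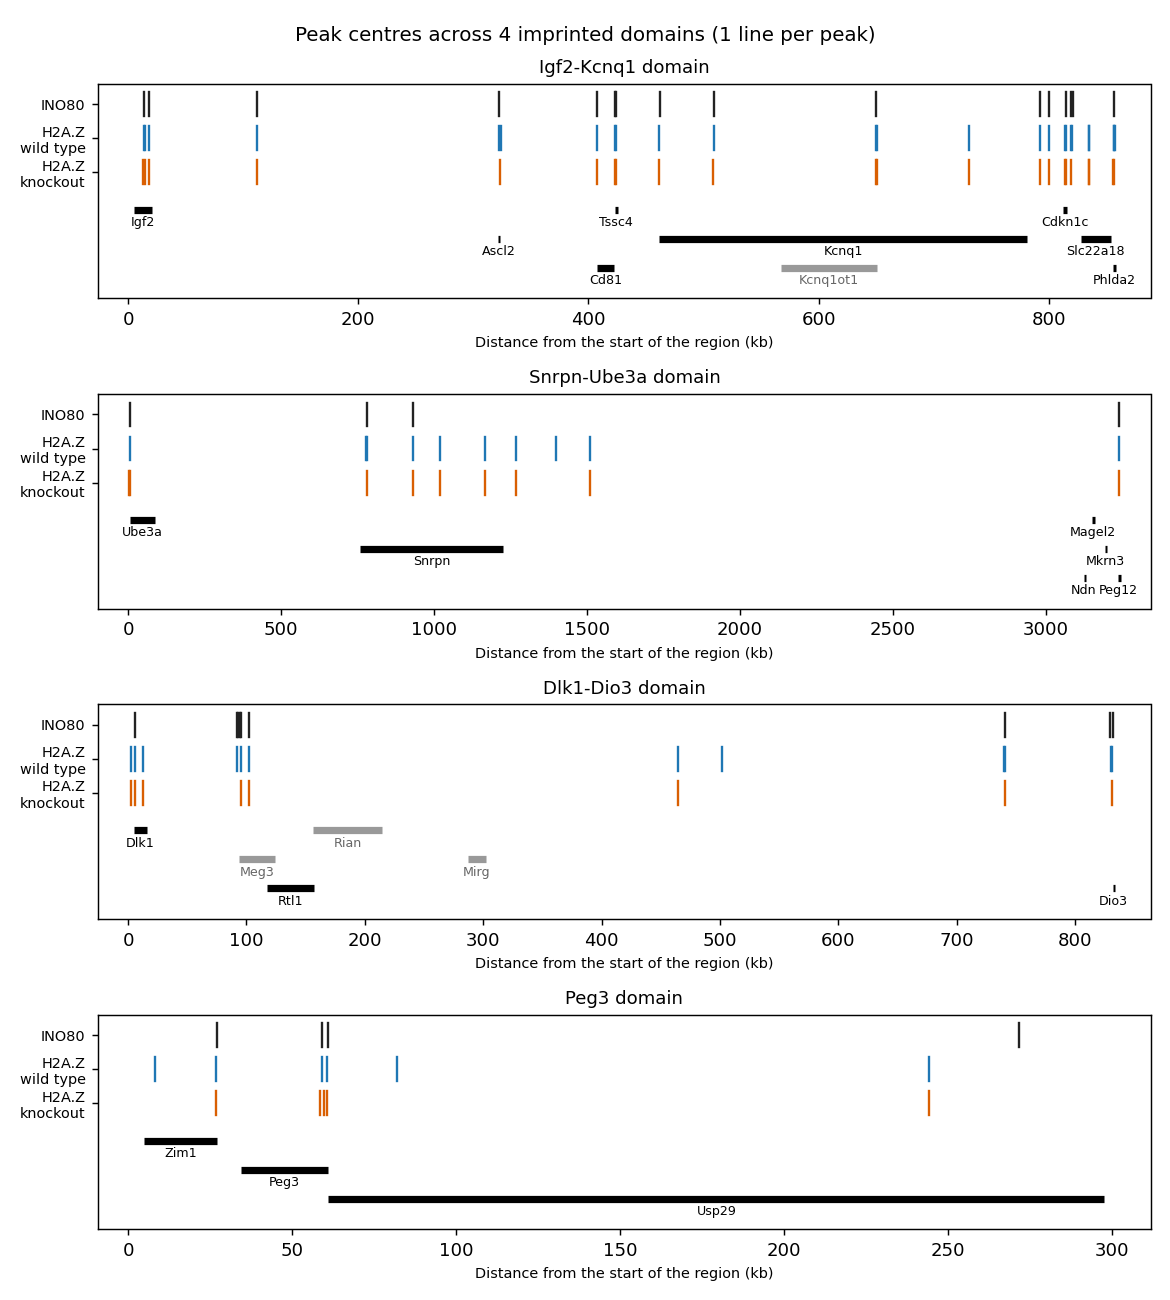
Peak centres of the 3 lists along 4 imprinted domains, with distance in kb from the start of each region, members in black and noncoding RNA genes in grey. Peaks are frequent across the Igf2–Kcnq1 domain, and none lies over Ndn, Magel2, Mkrn3 or Rtl1.

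The Dlk1–Dio3 domain on chromosome 12 spans 839 kb and held 9 INO80 peaks, 12 wild-type and 8 knockout H2A.Z peaks. Most lay at Dlk1, Meg3 and Dio3. Outside those genes, an INO80 peak of 2431 bp with H2A.Z of both genotypes lay at 110187258 to 110189688, and wild-type H2A.Z peaks of 745 and 260 bp lay between it and Meg3, of which the first had a knockout peak of 185 bp. Dio3, which encodes the deiodinase that inactivates thyroid hormone, had the widest INO80 peak of all members. It measured 5628 bp, from 110277096 to 110282723, and covered the whole gene of 1868 bp and the divergent noncoding Dio3os start. Wild-type H2A.Z filled little of it, with peaks of 833 and 426 bp. In the knockout list 1 peak of 267 bp lay within it, just before the start. H2A.Z coverage was thus 1259 bp in the wild type, with a mean peak width of 629.5 bp, and 267 bp in the knockout, which is 21.2% of the wild-type value and the lowest share among the 29 members with H2A.Z.

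Dlk1, which encodes a transmembrane ligand of the Notch family, had an INO80 peak of 1924 bp over its start. The nearest H2A.Z began 492 bp inside the gene, with a width of 645 bp in the wild type and 307 bp in the knockout. H2A.Z coverage over the window was 1309 bp in the wild type and 781 bp in the knockout. Rtl1 had no peak, although Meg3, the noncoding RNA gene that overlaps its lower-coordinate end, carried INO80 of 1351 bp over its start. The domain's paternally methylated control region lies between Dlk1 and Meg3, and its exact position was not examined here. That interval of 77.7 kb held 2 INO80 peaks, 1 wild-type H2A.Z peak of 326 bp and no knockout peak. All of them began 76042 bp or more from its Dlk1 end, close to the Meg3 start. One of these INO80 peaks is the one over the Meg3 start.

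The Peg3 domain on chromosome 7 held 4 INO80 peaks, 6 wild-type and 5 knockout H2A.Z peaks. Peg3 and Usp29 share a bidirectional promoter. The genes face away from each other with 96 bp between them, Peg3 encoding a zinc-finger factor and Usp29 a deubiquitinase-family protein, so their windows share peaks. INO80 formed a narrow peak of 210 bp at the start and one of 1750 bp further inside Peg3. The matching wild-type H2A.Z peaks measured 815 and 1746 bp. In the knockout the first measured 789 bp, while the place of the second held peaks of 1116 and 212 bp. Usp29 alone held a wild-type peak of 685 bp in its body without a knockout counterpart, the widest such peak at any member. Zim1, a maternally expressed zinc-finger gene, had short peaks only, with an INO80 peak of 264 bp over its start, H2A.Z of 274 bp in the wild type and 242 bp in the knockout. A further wild-type peak of 475 bp in its body was absent from the knockout list.

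Peg10, a retrotransposon-derived placental gene, and Sgce, which encodes epsilon-sarcoglycan, are transcribed away from each other across 101 bp. One INO80 peak of 2900 bp at 4746545 to 4749444 of chromosome 6 covered both 5′ ends. H2A.Z covered 2485 bp there in the wild type and 1540 bp in the knockout, as 2 peaks in each genotype. Their neighbour Ppp1r9a, which encodes the actin-binding protein neurabin and is maternally expressed in the placenta, had a peak of each list over its starts. These measured 1560 bp for INO80, 1349 bp for wild-type H2A.Z and 1335 bp for knockout H2A.Z.

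Gnas on chromosome 2, the gene of the stimulatory G protein alpha subunit, had the largest INO80 coverage of the 33 members, 12551 bp in 6 peaks against 5521 bp of wild-type H2A.Z. The first peak, of 3213 bp at 174283973 to 174287185, covered the most upstream start, from which the maternally expressed Nesp transcript begins. No H2A.Z lay there in either genotype, and the nearest wild-type peak was 10884 bp inside the gene. The last peak, of 4618 bp at 174327028 to 174331645, covered the exon 1A start, whose promoter is methylated on the maternal copy, and the start of the main transcript. Over the main start it met H2A.Z of 2463 bp in the wild type and 2477 bp in the knockout. Over the exon 1A promoter the wild-type list had a peak of 195 bp, 36 bp before the start, and the knockout list none. A knockout peak of 158 bp lay beyond that promoter, beginning 141 bp inside the start. A wild-type peak of 1864 bp upstream had knockout peaks of 513 and 489 bp in its place.

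Grb10 on chromosome 11, an adaptor gene that dampens insulin signalling, had INO80 of 2279 bp over its main start and of 1347 bp near an internal one. H2A.Z at the main start measured 1620 bp in the wild type, and 316 and 941 bp in 2 knockout peaks. Igf2r on chromosome 17, whose product clears IGF2, had INO80 of 745 bp at its start and of 1179 bp in the intron from which the silencing RNA Airn is read. H2A.Z began 15 bp inside the Airn start in the wild type and 7 bp inside it in the knockout, and INO80 371 bp inside. At both Airn and Kcnq1ot1, INO80 thus began further inside the noncoding gene than H2A.Z did.

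Among the remaining paternally expressed genes the balance of the marks varied. Mest, which encodes a hydrolase-like protein, had INO80 of 1965 bp over its second start and H2A.Z of only 274 bp in the wild type and 175 bp in the knockout. Plagl1, a zinc-finger gene, had INO80 of 927 bp over its start, and H2A.Z coverage was 1663 bp in the wild type and 1050 bp in the knockout. Zdbf2 had INO80 of 1272 bp over the downstream of its 2 starts, and H2A.Z alone over the upstream one.

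Of the paternally expressed genes, 3 lie within a host gene, and these also differed. Nap1l5, inside Herc3, had nearly equal peaks of 847, 862 and 870 bp over its start. Zrsr1, a splicing factor gene inside Commd1, had INO80 of 147 bp only, the narrowest width in any list, with H2A.Z of 813 bp in the wild type and of 176 and 252 bp in the knockout. The short INO80 peak fell into the gap between the 2 knockout peaks. Nnat, inside Blcap, had INO80 of 1835 bp over its start, while the nearest H2A.Z lay 5819 bp beyond it, at the promoter of Blcap. Impact, which lies in no listed host gene, showed the reverse, with wild-type H2A.Z of 1401 and 696 bp, knockout H2A.Z of 1383 and 583 bp and no INO80.

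Across the members, H2A.Z in the knockout lay mostly where it lay in the wild type. The windows held 70 distinct wild-type and 62 distinct knockout peaks. Of the wild-type peaks, 13 had no knockout peak over them, which is 18.6% (95% Wilson interval 11.2% to 29.2%) against 30.1% of all wild-type peaks. That background counts peaks anywhere in the genome, not only in gene windows, as do the other shares of all peaks below. Peaks in the windows of other genes were not read for this share. The distance from that background depended on the setting. With the widest 50% of the peaks the share was 26.2% (95% Wilson interval 15.3% to 41.1%) against 29.9%, and within 1 kb of either gene end it was 3.70%, or 1 of 27 peaks. In the main windows the count was 7 of 36 in paternally and 4 of 28 in maternally expressed windows. These 13 peaks were short, from 147 to 685 bp with a median of 231 bp, while the 57 with a partner had a median of 648 bp. INO80 lay over 4 of the 13, against 15% of all such wild-type peaks, and over 42 of the 57, against 61.1%. In the other direction 1 of 62 knockout peaks had no wild-type peak, against 6.62% of all knockout peaks, and it was a 158 bp peak at Gnas.

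Coverage was lower in the knockout list at 26 of the 29 members with H2A.Z, and 79% of all genes with H2A.Z in both lists showed that direction. The median of knockout as a share of wild-type coverage was 79.7% over the members, against 83% over all genes. It was 73.3% over the 16 paternally and 84.6% over the 12 maternally expressed genes, with lower knockout coverage in 14 and 11 of them. The lowest shares belonged to Dio3 at 21.2%, Zim1 at 32.3% and Zrsr1 at 42.6%, and the highest to Ascl2 at 140%, Igf2 at 106% and Nap1l5 at 101%. Wild-type peaks that overlapped 2 or more knockout peaks numbered 5 of 70, at Peg3, Ube3a, Grb10, Zrsr1 and Gnas, against 2.84% of all wild-type peaks. The knockout list as a whole is shorter, and since depth and the threshold of the calls are unknown, the part of either in these differences was not tested.

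**Figure D4:**
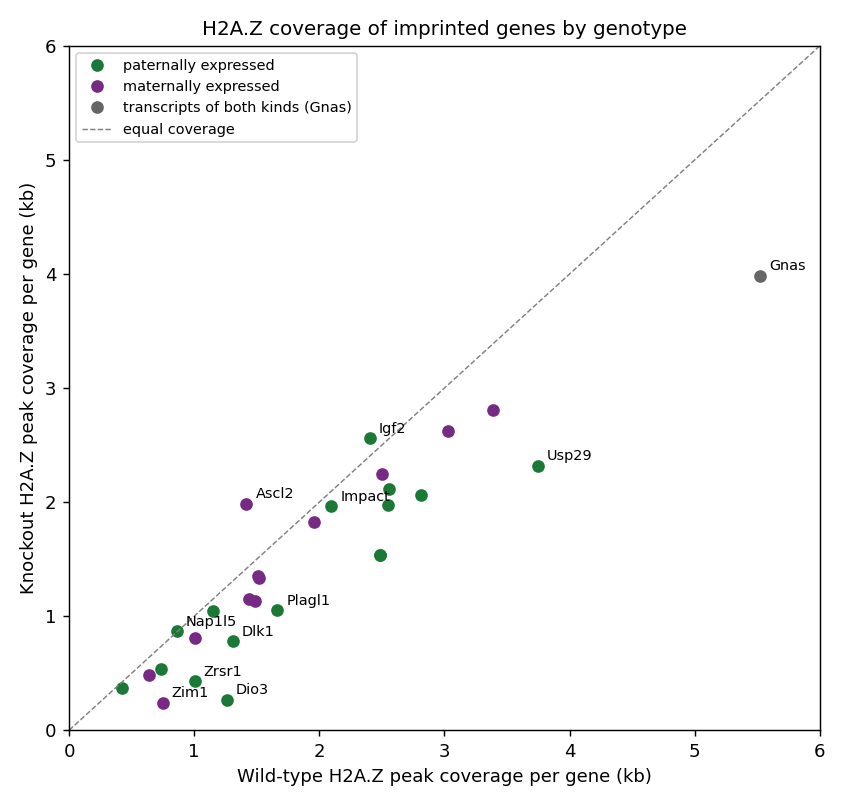
Summed H2A.Z peak width per imprinted gene in kb, wild type on the horizontal and knockout on the vertical axis, with the line of equal coverage dashed. Of the 29 genes with H2A.Z, 26 lie below the line, Peg10 and Sgce coincide, and Igf2, Ascl2 and Nap1l5 lie above it.

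INO80 and H2A.Z overlapped at most of the imprinted genes. Of the 48 INO80 peaks, 37 lay over a wild-type H2A.Z peak, 77.1% (95% Wilson interval 63.5% to 86.7%) against 83% of all INO80 peaks. The count was 17 of 24 in paternally and 16 of 18 in maternally expressed windows. Of the 70 wild-type H2A.Z peaks, 46 lay over INO80, 65.7% (95% Wilson interval 54.0% to 75.8%) against 47.2% of all such peaks. Both background shares count peaks anywhere in the genome, so a difference may belong to gene windows in general, which was not tested. INO80 covered more base pairs than wild-type H2A.Z in 17 of the 28 members with both, against 45.7% of genes with both. Dio3, Mest, Nnat, Gnas and Igf2 were on the INO80 side, and Snrpn, Zrsr1, Zim1 and Usp29 on the H2A.Z side.

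Among the member promoters INO80 was more frequent where CpGs were more frequent, as it was among all promoters. The median member promoter held 17 CpGs in 300 bases, against 13 over 21262 protein-coding promoters. Promoters of paternally expressed genes had a median of 13 and those of maternally expressed genes of 23. Member promoters under INO80 had a median of 23 CpGs and those without INO80 of 8.5. INO80 lay over 15 of 16 member promoters with 20 or more CpGs, where 87.4% of all such promoters had it, and over 6 of 8 with 15 to 19, against 64.2%. It lay over 4 of 7 with 10 to 14, against 47.2%, over 2 of 5 with 5 to 9, against 14%, and over 0 of 5 with fewer, against 1.34%. The one CpG-rich promoter without INO80 was that of Tssc4, with 23 CpGs and peaks on both its sides. Several of the promoters share a peak, so they are not independent units. The Gnas starts with 27, 28 and 40 CpGs lay under the same INO80 peak of 4618 bp. Both Mest starts with 17 CpGs lay under the same peak of 1965 bp.

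**Figure D5:**
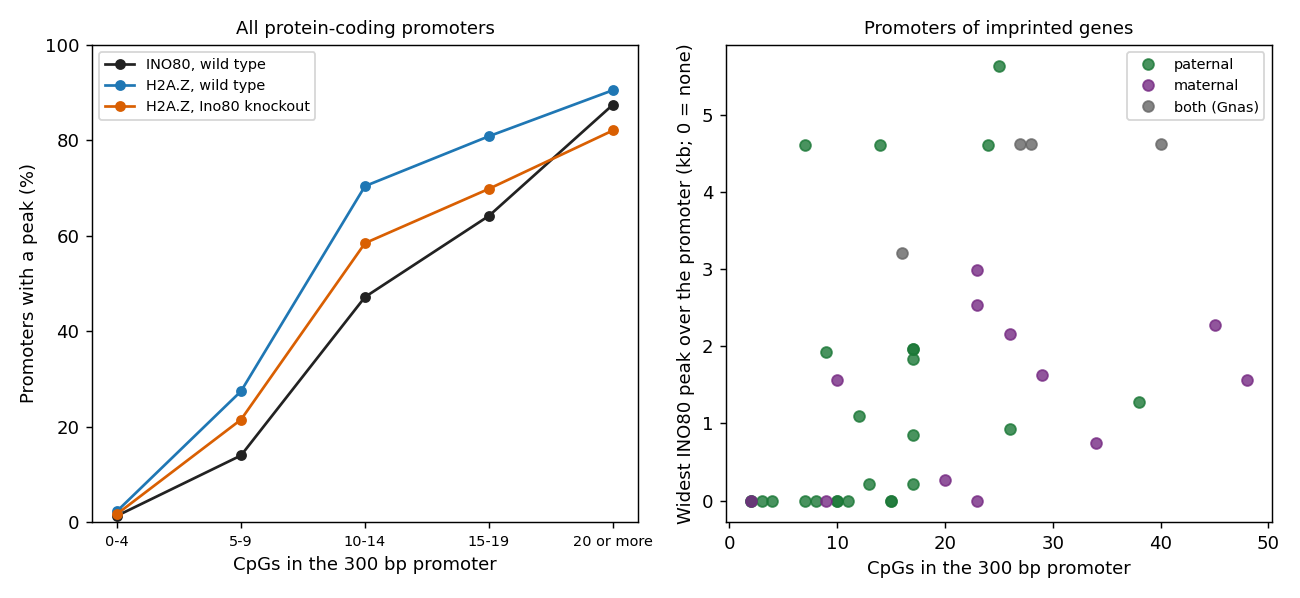
Left, percent of all protein-coding promoters with a peak of each list by number of CpGs in 300 bp. Right, width in kb of the widest INO80 peak over each promoter of the imprinted genes against its CpG count, with 0 for none, where 15 of the 16 promoters with 20 or more CpGs have INO80. Some promoters of the same gene lie under the same peak.

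Letters of 2 motifs, those of the factors ZFP57 and YY1, were looked for on both strands of the 300-base promoters. TGCCGC, which ZFP57 binds when its CpG is methylated, was in 10 of 41 member promoters and in 14.1% of all promoters of that length. Among all annotated promoters of genes with a start at a maternally methylated control region it was in 7 of 19. The overlapping Mest promoters at the starts 30738050 and 30738053 are both counted in the 7 and in the 10. The motif holds a CpG, and the 14.1% was not matched for CpG number, whose median was 17 in member promoters and 13 over all. AAGATGG, the core bound by YY1, was in 1 of 41, at Ube3a, against 6.24% of all. The motifs share no stretch with each other, and a match describes letters only. Genes of that control-region class had INO80 in 12 of 13 windows and H2A.Z of both genotypes in 13 of 13, against 63.3% and 69.6% of all genes. The 2 members with such a region in an intron had both, and of the 18 other members 14 had INO80 and 14 had H2A.Z of both genotypes. Windows reach beyond the control regions, and the H2A.Z of Nnat lay at or beyond the promoter of Blcap. Within 1 kb of either gene end, INO80 and H2A.Z of both genotypes were each at 10 of the 13, against 54.5% and 58.5%. Over a promoter, INO80 and knockout H2A.Z each lay at 8 of the 10 with an entry, against 48.1% and 49.5%. Wild-type H2A.Z lay at 9 of them, against 55.9%. Peg3 shares peaks with Usp29, and Peg10 with Sgce.

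The same windows were read at other imprinted genes. Of 34 further imprinted protein-coding genes, 24 had INO80, 28 wild-type and 27 knockout H2A.Z, or 70.6%, 82.4% and 79.4%, against the 63.3%, 73.6% and 70.1% of all protein-coding genes. The widest INO80 peaks there were at Sfmbt2, a polycomb-related gene, with 4947 bp, at the potassium channel gene Kcnk9 with 4525 bp, at Begain with 3472 bp and at the cation transporter gene Slc22a3 with 3070 bp. Htr2a, a serotonin receptor gene, was the one gene among them with H2A.Z in the wild type alone, as a peak of 154 bp, a state that 4% of all genes shared. Of 9 imprinted noncoding RNA genes, 6 had INO80 and 7 had H2A.Z in each genotype. These shares of 66.7% and 77.8% were near those of all protein-coding genes given above. The widest INO80 peaks were at Nespas with 3380 bp, Peg13 with 2090 bp, Meg3 with 1351 bp and Airn with 1179 bp, those of Nespas and Airn lying also in the windows of Gnas and Igf2r. The 3 without INO80 were named after their values were seen. H19, the maternally expressed neighbour of Igf2, had H2A.Z without INO80, and Rian and Mirg had no peak. The host genes Blcap, Commd1, Herc3 and H13 had all 3 kinds of peak, as 60.6% of all protein-coding genes did.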

How the data were processed

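ChIP-seq of INO80 and H2A.Z gave 12 libraries in 6 groups of 2, inputs included. By the file names, the authors deposited 1 file of peak positions per ChIP group, with chromosome, start and end and no score. The labels do not say how the libraries of a group were merged into its list. The submitters' processing notes name Bowtie2, SAMtools, deepTools, MACS2 and the mm10 build. The sources used here state neither their versions nor their roles nor the calling threshold. Depth is unknown, so a wider or extra peak can reflect depth or threshold as well as signal.

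Peaks were assigned to RefSeq genes of GRCm38.p6 by an overlap of at least 1 bp with the gene body and 5 kb on both sides, in Python 3.11.15 with pandas 2.3.3, and the overlaps were checked with bedtools 2.31.1 and tested on planted peaks. Peaks in several windows were counted once in shares of peaks. Exon annotation was not used here. All 33 genes could be named. Of the other lists of imprinted genes and imprint factors, the 4 with the widest INO80 peak and those with H2A.Z in 1 genotype only were named by rule, and H19, Rian, Mirg and Zfp57, which lack INO80, after their values were seen. The members, the class of expressed copy and the lists were chosen from general knowledge with earlier results of these data known. Intervals are 95% Wilson intervals, and the limit beside a count of 0 is 3 counts of the total. Alternatives were the gene body alone, 10 kb flanks, 1 kb around gene ends, the widest 50% of peaks, stricter overlap, and leaving out genes whose expressed copy depends on the tissue.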

Additional observations from a re-analysis of the deposited data

How the results depend on the processing

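Of 37 comparisons of a value with its alternatives, 32 stayed within 1.5 times of the main count or within its interval. The count of members with H2A.Z in the wild type alone, 0 in the main windows, was 1 with the gene body alone (Dio3), 1 with 1 kb around either gene end (Dlk1) and 4 with the widest 50% of the peaks (Dio3, Dlk1, Zim1 and Zrsr1), against 5.12%, 4.13% and 9.6% of all genes. Leaving out genes whose expressed copy depends on the tissue gave INO80 in 7 of 7 maternally expressed genes, in place of 12 of 12. That count moved only because fewer genes were read, and the share stayed the same. Around gene ends, 3.70% of wild-type peaks, 1 of 27, had no knockout peak, in place of 18.6%. No paired analysis was possible because each group was deposited as 1 list with no values per library. For the same reason no library could be left out. With no depth in the files, an absent peak does not show that the protein was absent.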

Other observations

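The genes of 11 factors that set or maintain imprints were read in the same windows. INO80 lay at 9 of them, wild-type H2A.Z at 11 and knockout H2A.Z at 10, against 63.3%, 73.6% and 70.1% of all protein-coding genes. The widest INO80 peaks were at Dnmt3a, a de novo DNA methyltransferase gene, with 2939 bp, at its cofactor gene Dnmt3l with 2037 bp, at Ctcf, the insulator protein gene, with 1624 bp and at Dnmt3b with 964 bp. The Dnmt3l peak did not lie over its annotated promoter, while those of Dnmt3a, Ctcf and Dnmt3b lay over theirs. At Dnmt3a the H2A.Z coverage was 4177 bp in the wild type and 2480 bp in the knockout. Dppa3, whose product protects imprints in the early embryo, had H2A.Z in the wild type alone, as 1 peak of 252 bp, and no INO80, where 4% of genes had H2A.Z in the wild type alone. The other gene without INO80 was named after its values were seen. Zfp57, the gene of the zinc-finger protein that binds methylated control regions, had H2A.Z in both genotypes without INO80.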
